A study of Mus musculus with 7 samples.

Results

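The genes Runx1, Runx2, Runx3 and Cbfb, which encode the RUNX transcription factors and their common partner, were followed across accessible chromatin regions of CD4+ T cells responding to a helminth. Every region of the deposited table that overlapped 1 of these genes in the GENCODE mm10 annotation, or the 10 kb on either side of it, was taken without regard to its values. This gave 182 of 113820 regions, of which 76 lay at Runx1, 73 at Runx2, 27 at Runx3 and 6 at Cbfb. All 182 were tested, with no filter on low values.

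Chromatin accessibility was measured by ATAC-seq, in which Tn5 transposase cuts open DNA, in 7 libraries from C57BL/6 mice infected with Nippostrongylus brasiliensis, a nematode whose larvae pass through the lung. All 3 populations came from mice given 500 L3 larvae and were sorted at day 8, with 50000 cells in each library. Lymph node IL-4+ cells (n = 2; LN in the plots) were GFP+ and came from the mediastinal node of IL-4-4get GFP reporter mice, and lung IL-4+ cells (n = 3) were GFP+ cells from the lung of that reporter line. Lung IFNγ+ cells (n = 2) were YFP+ CD4+ T cells from the lung of IFN-gamma-Great YFP reporter mice. No uninfected or reporter-negative library was analysed here, so the comparisons are between infected populations. The 4get GFP marks cells that transcribe Il4 and not only those secreting the cytokine, and the lung IL-4+ and lung IFNγ+ cells differ in reporter line as well as in cytokine. The sort took CD3ε+ CD4+ cells and left out cells bearing CD8, B220, NK1.1, CD11b, CD11c or Ter119. Which mouse gave which library is not stated, so the tests measure the spread between these libraries. Since each library holds a mixed population, fewer cells with an open region and less opening per cell cannot be told apart.

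Values are the authors' log2 normalized insertions per kb of region, called density below when not on the log2 scale. Promoter regions of Cd3e, Cd3g, Cd4 and Lat, which mark CD4+ T cells, lay between 3.93 and 4.74 on the log2 scale in all libraries. No promoter region was listed for Cd8a, Ncr1, Ms4a1, Cd79a, Csf1r, Adgre1, Lyz2 or Sftpc. The reported marker genes of other cell types with a promoter region were Cd8b1, Epcam and Klrb1c. Cd8b1 (2.8 in lymph node IL-4+, 2.12 in lung IL-4+ and 2.00 in lung IFNγ+ cells) and Epcam (3.52, 3.18 and 3.23) had no excess in the lung, whereas Klrb1c, which encodes the NK1.1 antigen used to exclude cells, was at 1.16, 1.34 and 2.70. Insertions rebuilt from tied values, which are lower bounds, summed to 14005923 to 91681969 per library, with a median of 53 to 176 per region. The libraries fell into 2 kinds by the spread of these counts over regions. Replicate 1 of the lymph node and replicates 2 and 3 of lung IL-4+ cells had a narrow spread (log2 ratio of upper to lower quartile 1.65 to 1.74), and the other 4 libraries, both lung IFNγ+ libraries among them, had a wide one (2.89 to 3.07). Values within each kind are given beside the locus sums and median differences, and the part of the spread in the results was not tested further.

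RUNX1, RUNX2 and RUNX3 are the DNA-binding subunits of core binding factor and recognise DNA through their Runt domain, while CBFβ, the product of Cbfb, does not bind DNA itself and stabilises their binding. In T cells RUNX proteins silence or activate lineage genes: RUNX1 acts on Cd4 in thymocytes and on Il2 and Foxp3, and RUNX3 acts with T-bet at Ifng and at the Il4 silencer and is central to CD8 and cytotoxic programmes. RUNX2 is best known as the regulator of bone formation and is also made in activated and memory T cells. Each Runx gene is read from a distal and a proximal promoter that give different first exons.

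The genes were found on 4 chromosomes. Runx1 (ENSMUSG00000022952.17) lies on the minus strand at chr16:92601466-92826149 and Runx2 (ENSMUSG00000039153.16) on the minus strand at chr17:44495987-44814797. Runx3 (ENSMUSG00000070691.10) lies on the plus strand at chr4:135120652-135177990 and Cbfb (ENSMUSG00000031885.14) on the plus strand at chr8:105170674-105217989. Of the 76 Runx1 regions, 66 were intronic, 4 overlapped an exon, 3 lay within 1 kb of an annotated start (promoter regions) and 3 lay in the flanks. The 73 Runx2 regions were 64 intronic, 7 exonic and 2 promoter regions, and the 27 Runx3 regions were 14 intronic, 2 exonic, 5 promoter and 6 flanking regions. Cbfb had 1 promoter, 1 exonic, 2 intronic and 2 flanking regions.

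The distal promoters of the 3 Runx genes are shown because they hold a sequence that almost no other promoter holds. Each RefSeq window (GRCm38.p6) runs from 250 bases before to 50 bases after the start and is printed along the gene's strand, with AACCACA, the letters searched as the RUNX consensus, in capitals.
Runx1 distal promoter, chr16:92826025-92826324, minus strand: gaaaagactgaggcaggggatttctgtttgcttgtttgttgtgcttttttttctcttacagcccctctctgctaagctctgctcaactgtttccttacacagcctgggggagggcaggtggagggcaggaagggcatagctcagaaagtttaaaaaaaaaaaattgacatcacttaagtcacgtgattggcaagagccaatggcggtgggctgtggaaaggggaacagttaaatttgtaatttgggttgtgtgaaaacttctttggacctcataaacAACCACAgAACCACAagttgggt
Runx2 distal promoter, chr17:44814578-44814877, minus strand: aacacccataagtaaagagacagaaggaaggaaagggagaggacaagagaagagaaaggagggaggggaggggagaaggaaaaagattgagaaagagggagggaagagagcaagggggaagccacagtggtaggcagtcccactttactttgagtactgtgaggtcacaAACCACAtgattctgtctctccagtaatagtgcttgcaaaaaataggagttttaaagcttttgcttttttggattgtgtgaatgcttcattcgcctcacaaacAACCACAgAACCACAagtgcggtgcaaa
Runx3 distal promoter, chr4:135120395-135120694, plus strand: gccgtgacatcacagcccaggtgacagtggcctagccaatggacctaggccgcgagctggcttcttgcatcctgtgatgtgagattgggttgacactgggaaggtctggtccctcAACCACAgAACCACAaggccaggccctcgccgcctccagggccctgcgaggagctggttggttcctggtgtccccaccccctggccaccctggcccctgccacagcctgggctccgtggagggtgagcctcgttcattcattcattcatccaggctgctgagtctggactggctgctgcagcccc
In each of them 2 copies stand 1 base apart (AACCACANAACCACA). Over both strands, 1731 of 32851 RefSeq promoter windows (5.3%) held AACCACA at least once, 67 (0.2%) held it at least 2 times, and 5 held the close pair. Those 5 were the 3 Runx distal promoters, that of Gm16225, which starts on the opposite strand over the same Runx3 copies, and that of Olfr24, an olfactory receptor gene. The pair was looked for after the sequences had been seen. It began 28 bases into the RefSeq transcript at Runx1 and 23 bases into it at Runx2, and at Runx3 it ended 120 bases before the start. The Runx1 and Runx3 pairs lay within listed accessible regions (Runx1 region 75 and Runx3 region 4, numbered along the chromosome), and the Runx2 pair did not. The nearest listed region was 37.0 kb from the distal Runx2 start. The table lists called regions, so no level can be given there.

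The regions below are among those called between lung and lymph node cells, described further on. Runx1 region 57, Runx2 region 18 and Runx3 region 16 had their gene's largest mean difference between lung IL-4+ and lymph node IL-4+ cells among regions with non-overlapping libraries. Runx3 region 21 had that gene's largest such difference between lung IFNγ+ and lymph node IL-4+ cells. Each line gives the central 300 bases on the plus strand of GRCm38/mm10, with matches on either strand in capitals. The capitals mark the RUNX letters given above, AGATAA for GATA factors, or TGANTCA, the letters searched for bZIP factors.
Runx1 region 57, intron, chr16:92793675-92793974: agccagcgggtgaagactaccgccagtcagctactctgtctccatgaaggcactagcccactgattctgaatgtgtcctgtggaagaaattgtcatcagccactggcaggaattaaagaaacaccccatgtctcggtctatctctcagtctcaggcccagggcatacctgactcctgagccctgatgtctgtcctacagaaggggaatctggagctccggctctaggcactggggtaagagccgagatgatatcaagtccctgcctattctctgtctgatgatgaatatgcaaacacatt
Runx2 region 18, intron, chr17:44608999-44609298: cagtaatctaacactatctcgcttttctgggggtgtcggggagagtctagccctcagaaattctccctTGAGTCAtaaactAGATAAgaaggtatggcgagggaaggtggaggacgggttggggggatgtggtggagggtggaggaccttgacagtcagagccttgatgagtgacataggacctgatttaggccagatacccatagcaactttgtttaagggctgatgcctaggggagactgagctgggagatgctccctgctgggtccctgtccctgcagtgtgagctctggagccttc
Runx3 region 16, intron, chr4:135161481-135161780: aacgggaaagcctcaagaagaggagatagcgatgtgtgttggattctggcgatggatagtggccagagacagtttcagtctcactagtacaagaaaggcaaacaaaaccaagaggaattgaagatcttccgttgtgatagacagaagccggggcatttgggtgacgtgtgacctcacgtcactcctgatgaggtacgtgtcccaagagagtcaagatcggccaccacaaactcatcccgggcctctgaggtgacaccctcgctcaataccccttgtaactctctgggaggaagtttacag
Runx3 region 21, intron, chr4:135169155-135169454: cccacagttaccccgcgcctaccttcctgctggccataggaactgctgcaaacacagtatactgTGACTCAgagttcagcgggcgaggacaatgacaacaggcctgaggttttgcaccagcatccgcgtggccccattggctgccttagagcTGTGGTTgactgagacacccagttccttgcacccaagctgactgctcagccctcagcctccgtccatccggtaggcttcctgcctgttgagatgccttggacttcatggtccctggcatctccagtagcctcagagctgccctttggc
Runx3 region 21 held a RUNX and a bZIP match, Runx2 region 18 held a bZIP and a GATA match, and the other printed sequences held none of these letters.

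The 4 loci had different levels and different orders among the populations. Per kb of region, mean density at Runx1 was 8.08 ± 0.73 (SD, n = 2) in the lymph node, 12.3 ± 2.5 in lung IL-4+ cells (n = 3) and 8.83 ± 0.038 in lung IFNγ+ cells (n = 2). At Runx2 density was lowest in lymph node IL-4+ (5.88 ± 0.44), higher in lung IL-4+ (8.61 ± 0.59) and highest in lung IFNγ+ cells (9.81 ± 0.36), and its libraries did not overlap between any 2 populations. At Runx3 the means were 7.40 ± 2.6, 12.0 ± 2.9 and 8.40 ± 0.23, with the lymph node IL-4+ libraries (9.25 and 5.54) overlapping both lung populations, since lung IL-4+ replicate 1 was at 8.75. Cbfb had the highest density per kb and the smallest differences, at 20.5 ± 0.51, 20.5 ± 0.73 and 20.8 ± 0.66. At Runx1 and Runx3 the 2 narrow-spread lung IL-4+ libraries were the highest of all 7.

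**Figure D1:**
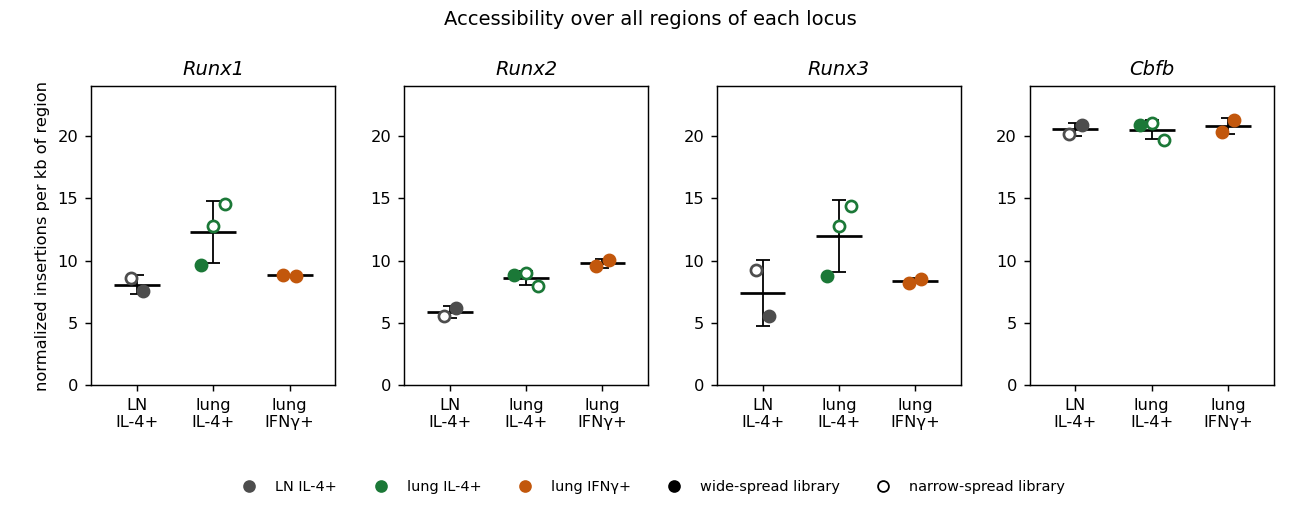
Each panel gives 1 locus, with density (normalized insertions per kb of region, vertical axis) for each library. Points are libraries, filled for the wide and open for the narrow spread, lines are means and bars are SDs (n = 2, 3 and 2); Runx2 libraries separate in all 3 populations and Cbfb libraries lie between 19.7 and 21.3.

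Densities summed over the regions of a locus were then compared by limma fitted over 17021 protein-coding genes with at least 1 region. For Runx2 the log2 difference between lung IFNγ+ and lymph node IL-4+ cells was 0.74 ± 0.12 (SE, limma adjusted p = 0.0283), the only member call at this level, where 2.15% of all genes were called. The sums were 315.2 and 350.7 in the lymph node IL-4+ libraries, 502.2, 510.9 and 449.0 in the lung IL-4+ libraries and 540.7 and 569.7 in the lung IFNγ+ libraries. Every lung library lay above both lymph node libraries. Lung IL-4+ exceeded lymph node IL-4+ cells at Runx2 by 0.55 ± 0.11 without passing the limma threshold (adjusted p = 0.0776), against 1.08% of all genes called. Lung IL-4+ against lung IFNγ+ gave no member call, where 0.0529% of genes were called, and 1 member, Runx1, had an unadjusted limma p below 0.05 (difference 0.46 ± 0.18). The Runx2 call was lost without lymph node IL-4+ replicate 1 (adjusted p = 0.0782), lung IL-4+ replicate 2 (0.0889) or 3 (0.0531), or lung IFNγ+ replicate 1 (0.349) or 2 (0.372), with differences of 0.66 to 0.78 on the log2 scale. Exact two-sided permutation tests of the sums cannot reach p = 0.05 here, since the smallest p is 0.1 for 3 against 2 libraries and 0.3333 for 2 against 2.

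Runx1 and Runx3 sums moved with the spread of the libraries, while Runx2 sums did so less. Lung IL-4+ exceeded lung IFNγ+ cells at Runx1 by 0.46 over all libraries and by 0.13 within the wide-spread libraries, and at Runx3 by 0.48 and 0.06. No narrow-spread lung IFNγ+ library exists, so the lung populations can be compared at equal spread only within the wide-spread libraries (1 lung IL-4+ and 2 lung IFNγ+ libraries). Lung IL-4+ exceeded lymph node IL-4+ cells at Runx1 by 0.59 (limma adjusted p = 0.195), and by 0.35 within the wide and 0.66 within the narrow libraries. The corresponding Runx3 differences were 0.71 (adjusted p = 0.273), 0.66 and 0.55, and those of Runx2 were 0.55, 0.52 and 0.60. With the kind of spread added to the limma model, lung IL-4+ against lymph node IL-4+ passed at Runx1 (0.53, adjusted p = 0.00363), Runx2 (0.57, adjusted p = 0.0011) and Runx3 (0.60, adjusted p = 0.000819), and lung IFNγ+ against lymph node IL-4+ passed at Runx2 (0.69, adjusted p = 0.00115) and Runx3 (0.57, adjusted p = 0.00299) but not at Runx1 (0.31, adjusted p = 0.0882). In that model lung IL-4+ against lung IFNγ+ did not pass at Runx1 (0.21, adjusted p = 0.384), Runx2 (-0.12, adjusted p = 0.621) or Runx3 (0.029, adjusted p = 0.938). The share of all genes that passed in that model is not given here, so these calls cannot be read as particular to the Runx genes. The sign of the Runx3 difference between lung IFNγ+ and lymph node IL-4+ cells rested on 1 library in the model without the spread: it was 0.23 with all libraries (adjusted p = 0.681) and -0.14 without lymph node IL-4+ replicate 2.

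Single regions were called at an adjusted limma p below 0.05, corrected over all 113820 regions, with a change of at least 3-fold. Between lung IL-4+ and lymph node IL-4+ cells, 8 regions of the 182 were higher in the lung (4 at Runx1, 1 at Runx2 and 3 at Runx3), where 1.05% of all regions were called in that direction. None was higher in the lymph node, where 0.695% of all regions were. At an unadjusted limma p below 0.05, 59 of the 182 were higher in lung IL-4+ cells and 2 in the lymph node. Over all 113820 regions 18438 had such a p in either direction. Between lung IFNγ+ and lymph node IL-4+ cells, 12 regions were higher in lung IFNγ+ cells (10 at Runx2 and 2 at Runx3), against 2.17% of all regions. None was higher in lymph node IL-4+ cells, against 0.862% of all regions. At an unadjusted limma p below 0.05, 50 of the 182 were higher in lung IFNγ+ cells. In lymph node IL-4+ cells 5 were, all at Runx1. Over all 113820 regions 21082 had such a p in either direction. Between lung IL-4+ and lung IFNγ+ cells no region was called in either direction. Over all regions 0.108% were called higher in lung IL-4+ and 0.387% higher in lung IFNγ+ cells. At these loci 1 region, Runx1 region 37, had an adjusted limma p below 0.05 there but was under 3-fold. In that comparison 39 regions had an unadjusted limma p below 0.05 with the higher level in lung IL-4+ cells and 12 with the higher level in lung IFNγ+ cells. Over all 113820 regions 16856 had such a p in either direction. Altogether 17 regions were called, 3 of them in 2 comparisons, and 16 of the 17 lay in introns. Of all regions of the loci, 66 of 76 at Runx1, 64 of 73 at Runx2, 14 of 27 at Runx3 and 2 of 6 at Cbfb were intronic. The 3 comparisons share libraries and are not independent.

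These counts depended on single libraries. The counts over all regions without a library are not given here, so the changes cannot be read as particular to these loci. The 8 regions called between lung IL-4+ and lymph node IL-4+ cells became 16 without lymph node replicate 2. They became 2 when lung IL-4+ replicate 2 was left out and 5 when replicate 3 was. The 12 called between lung IFNγ+ and lymph node IL-4+ cells became 20 without lymph node IL-4+ replicate 2, 18 of them higher in lung IFNγ+ cells, and 7 without lymph node IL-4+ replicate 1. They became 3 without lung IL-4+ replicate 2, 0 without lung IFNγ+ replicate 1 and 1 without lung IFNγ+ replicate 2. Region by region, a call held in 6 to 17 of 18 other settings of the fit and its direction did not change in any, with Runx2 region 18 between lung IFNγ+ and lymph node IL-4+ cells called in 17, and Runx2 regions 4 and 62 and Runx3 region 16 in that comparison in 6.

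A looser count asked in how many regions every library of 1 population lay above every library of the other. At Runx1, lung IL-4+ libraries lay above lung IFNγ+ libraries in 43 of 76 regions and below them in 2, where 19.4% and 21.2% of all regions were so separated. Runx2 had the opposite arrangement, with 2 of 73 regions above and 30 below. Runx3 had 11 of 27 above and 2 below, and Cbfb had 0 of 6 above and 1 below. Lung IL-4+ lay above lymph node IL-4+ libraries in 27 Runx1, 33 Runx2, 8 Runx3 and 0 Cbfb regions (13.6% of all regions). Lung IL-4+ lay below in 2, 4, 0 and 2 (14.3%). Lung IFNγ+ lay above lymph node IL-4+ libraries in 58 of 73 Runx2 regions (26.5% of all regions) and below in 2 (27.2%). Runx1 had 20 above and 28 below, Runx3 had 10 above and 1 below, and Cbfb had 2 above and 2 below. Neighbouring regions share libraries and are not independent measurements. These counts were not taken within each kind of spread.

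**Figure D2:**
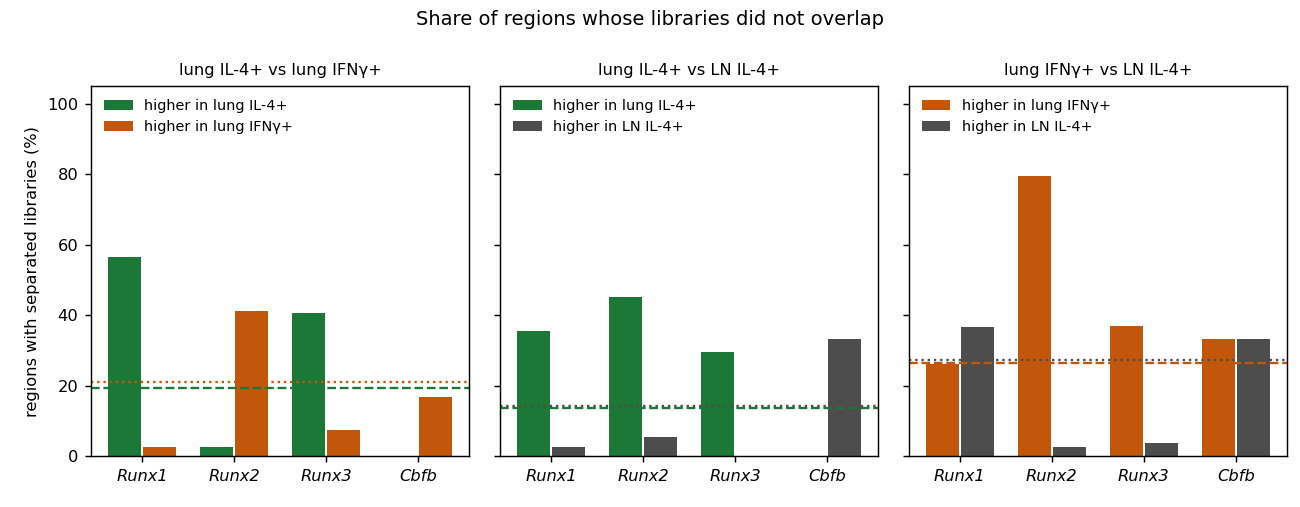
Bars give the share of each locus's regions (percent, vertical axis) in which all libraries of the population named by the colour lay above all libraries of the other, for 3 pairs of populations. Horizontal lines give the share over all regions, dashed for the population named first and dotted for the other; the Runx2 bar for lung IFNγ+ above LN IL-4+ reaches 79.5% against 26.5%.

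Median log2 differences were also taken over the regions of each locus. Between lung IL-4+ and lung IFNγ+ cells the median was 0.90 at Runx1, -0.39 at Runx2, 0.41 at Runx3 and -0.10 at Cbfb, beside -0.01 over all regions. Within the wide-spread libraries these were 0.44, -0.44, -0.02 and 0.04, beside 0.01 over all regions, so the Runx3 median there was near 0. Between lung IL-4+ and lymph node IL-4+ cells the medians were 0.68, 0.83, 0.83 and -0.11 (-0.03 over all regions). They were 0.33, 0.78, 1.04 and -0.06 within the wide and 0.65, 0.57, 0.53 and -0.08 within the narrow libraries. Between lung IFNγ+ and lymph node IL-4+ cells they were -0.31, 1.06, 0.57 and 0.02, and within the wide-spread libraries -0.07, 1.17, 0.91 and -0.16. The Runx1 median and the Runx1 sum differed in sign here, since the summed density was 0.13 higher on the log2 scale in lung IFNγ+ cells.

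Counting a region as accessible at a mean density of at least 5, the authors' definition, also put lung IL-4+ cells first at Runx1 and Runx3 and lung IFNγ+ cells first at Runx2. At Runx1, 24 regions were accessible in lymph node IL-4+, 46 in lung IL-4+ and 20 in lung IFNγ+ cells. At Runx2 the counts were 13, 24 and 36, at Runx3 7, 19 and 12, and at Cbfb 3, 3 and 3. Over the 4 loci these were 25.8%, 50.5% and 39.0% of the regions, and over all regions 43.7%, 43.6% and 42.9%. Of the 182 regions, 110 (60.4%) were accessible in at least 1 population, against 58.2% of all regions. Among them, 22 Runx1 and 9 Runx3 regions were accessible in lung IL-4+ cells alone, and 14 Runx2 regions in lung IFNγ+ cells alone. Over the 4 loci 18.1% of the regions were accessible in lung IL-4+ cells alone and 9.3% in lung IFNγ+ cells alone, against 4.9% and 5.7% of all regions. The accessible counts were not taken within each kind of spread. Lung IL-4+ replicates 2 and 3 had a narrow spread and no lung IFNγ+ library did, and its part in these counts was not tested.

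The called regions were placed along the genes as follows. At Runx2, 65 of 73 regions lay downstream of the proximal start, 78.1 kb from the distal one, and all 10 called regions were among them. The median difference between lung IFNγ+ and lymph node IL-4+ cells was 1.1 for these 65 and 0.01 for the 8 regions between the promoters. At Runx3 all 3 called regions lay 40.5 to 48.7 kb from the distal start, downstream of the proximal start at 31.8 kb, where 17 of the 27 regions lay. At Runx1, 3 of the 4 called regions lay 32.3 to 48.1 kb downstream of the distal start, between the promoters, and the other lay at 171.8 kb, past the proximal start at 128.8 kb. Between the promoters lay 50 of the 76 Runx1 regions, and the median difference between lung IL-4+ and lymph node IL-4+ cells was 0.67 for these and 0.72 for the 25 past the proximal start.

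**Figure D3:**
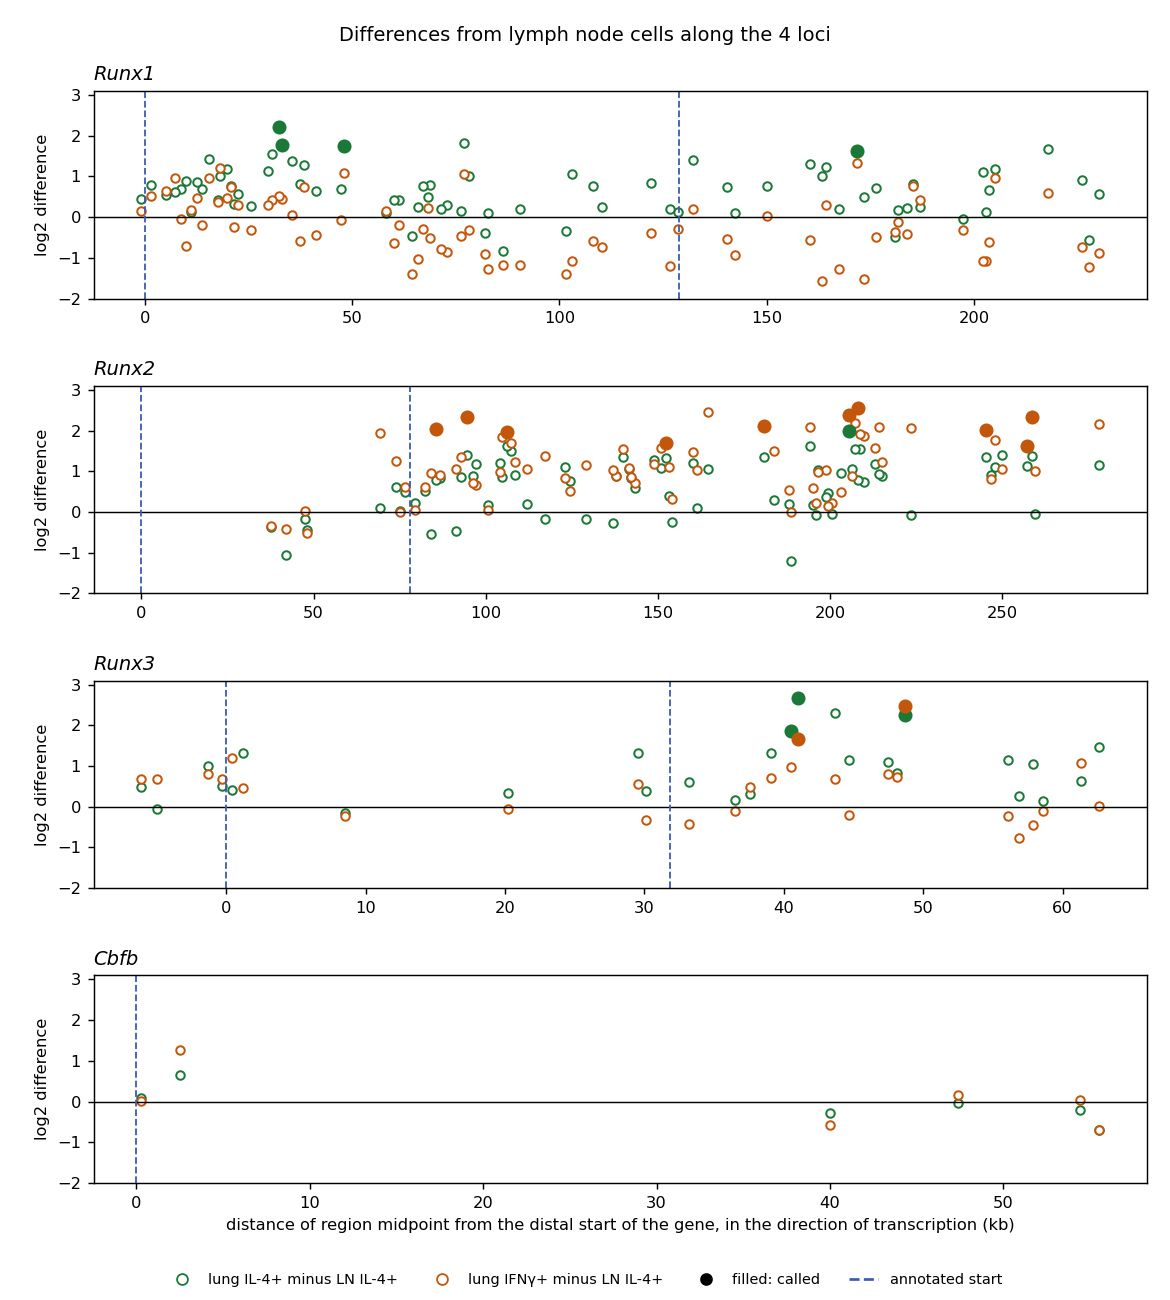
Each point is a region, placed by its distance in kb from the distal start in the direction of transcription (horizontal axis) and by its log2 difference from LN IL-4+ cells (vertical axis), green for lung IL-4+ and orange for lung IFNγ+ cells; filled points were called and dashed lines mark annotated starts. Called points lie downstream of the proximal start at Runx2 and Runx3, and Cbfb has none.

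Runx1 was called in 4 intronic regions, each between lung IL-4+ and lymph node IL-4+ cells. Region 57 (chr16:92793446-92794203) was at 1.44 and 1.73 on the log2 scale in the lymph node IL-4+ libraries, 3.64, 3.62 and 4.13 in the lung IL-4+ libraries and 1.75 and 2.47 in the lung IFNγ+ libraries. All lung IL-4+ libraries lay above both other populations, by 2.21 ± 0.33 (SE) over lymph node IL-4+ (limma adjusted p = 0.0091) and by 1.68 ± 0.33 over lung IFNγ+ cells (limma adjusted p = 0.0552, not called). Its neighbour, region 56 (chr16:92792678-92793342), was at 1.3 and 1.35 in lymph node IL-4+, 2.88, 3.36 and 3.05 in lung IL-4+ and 1.62 and 1.92 in lung IFNγ+ libraries. It differed from lymph node IL-4+ cells by 1.77 ± 0.33 (limma adjusted p = 0.0219) and held a GATA match. Region 50 (chr16:92777785-92778410), with a RUNX and a bZIP match, was at 1.42 and 1.17, then 2.82, 2.91 and 3.36, then 2.32 and 2.43 in the same order of libraries. The 3 populations did not overlap there, with lung IL-4+ highest and a difference from lymph node IL-4+ of 1.74 ± 0.32 (limma adjusted p = 0.0213). Region 17 (chr16:92653825-92654964) was at 2.40 and 2.68 in lymph node IL-4+, 3.99, 4.05 and 4.43 in lung IL-4+ and 3.91 and 3.83 in lung IFNγ+ libraries. Both lung populations were thus above the lymph node, by 1.62 ± 0.23 (limma adjusted p = 0.0081, called) and 1.33 ± 0.26 (adjusted p = 0.0191, under 3-fold).

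The Runx1 region with the highest mean, region 73 (chr16:92818435-92819233), lay 7.3 kb downstream of the distal start and held a RUNX and a GATA match. It was at 4.69 and 5.48 in lymph node IL-4+, 5.56, 5.65 and 5.87 in lung IL-4+ and 6.04 in both lung IFNγ+ libraries, which were above all others, and was not called. Among Runx1 regions where lung IL-4+ and lung IFNγ+ libraries did not overlap, the largest mean difference was at region 20 (chr16:92662698-92663098). It was at 1.65, 2.91 and 2.73 against -1.12 and 0.84. This region rested on few insertions, since the lower lung IFNγ+ library held 3 rebuilt ones. Its difference of 2.57 ± 0.65 did not pass the limma threshold (adjusted p = 0.1185). Region 37 (chr16:92747096-92748710) did pass it, by 1.32 ± 0.19 (limma adjusted p = 0.0223), but was under 3-fold and so not called. Its values were 4.88, 4.75 and 4.74 in lung IL-4+ libraries against 3.50 and 3.44 in lung IFNγ+ libraries. The lymph node IL-4+ libraries there were at 3.66 and 3.91.

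Runx2 was called in 10 regions, all between lung IFNγ+ and lymph node IL-4+ cells and 1 of them also between lung IL-4+ and lymph node IL-4+ cells. That region, 18 (chr17:44608572-44609725), was at 2.14 and 2.26 in lymph node IL-4+, 4.25, 4.26 and 4.04 in lung IL-4+ and 4.70 and 4.48 in lung IFNγ+ libraries. Both lung populations stood well above the lymph node and did not overlap with each other. The differences were 1.99 ± 0.21 for lung IL-4+ (limma adjusted p = 0.003) and 2.39 ± 0.23 for lung IFNγ+ cells (limma adjusted p = 0.0013). Region 8 (chr17:44569035-44570031), which held 2 RUNX matches and a T-box match, was at 3.06 and 3.78 in lymph node IL-4+, 4.76, 4.77 and 4.76 in lung IL-4+ and 5.39 and 5.46 in lung IFNγ+ libraries. The 3 populations were ordered without overlap, and the lung IFNγ+ excess over lymph node IL-4+ was 2.01 ± 0.24 (limma adjusted p = 0.0029). The lung IL-4+ excess at region 8 was 1.35 ± 0.22 and passed the adjusted threshold (limma adjusted p = 0.0129) but not the 3-fold one.

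Region 15 (chr17:44606256-44606681), which overlaps an exon, had the largest called difference at Runx2. Its values were 0.79 and 0.38 in lymph node IL-4+, 2.1, 1.32 and 0.70 in lung IL-4+ and 3.20 and 3.09 in lung IFNγ+ libraries. Lung IFNγ+ libraries lay above the rest, and lymph node IL-4+ and lung IL-4+ libraries overlapped (lung IFNγ+ over lymph node IL-4+ 2.57 ± 0.53, limma adjusted p = 0.0254). Region 3 (chr17:44555881-44556296) was at 0.99 and 2.63 in lymph node IL-4+, 3.56, 3.16 and 2.82 in lung IL-4+ and 3.99 and 4.30 in lung IFNγ+ libraries, ordered without overlap but with the 2 lymph node libraries far apart. Region 4 (chr17:44557131-44557623) next to it was the most open of the called Runx2 regions, at 3.32 and 4.82, then 5.25, 5.26 and 5.11, then 5.70 and 5.68. Regions 30, 36, 52, 58 and 62 were called with differences of 1.69 to 2.33 and limma adjusted p of 0.0256 to 0.0438. In regions 30 and 58 the 3 populations were again ordered lymph node IL-4+, lung IL-4+, lung IFNγ+ without overlap, whereas in 36 and 52 the 2 lung populations overlapped. Region 9 (chr17:44590944-44591350) had the largest mean difference at this locus among regions where the lung populations did not overlap. It was at 1.54, 0.74 and 0.13 in lung IL-4+ against 3.11 and 2.77 in lung IFNγ+ libraries, and was not called (limma adjusted p = 0.1351).

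Runx3 was called in 3 intronic regions. Region 16 (chr4:135161395-135161866) was at 1.43 and 2.33 in lymph node IL-4+, 4.56, 4.60 and 4.53 in lung IL-4+ and 3.15 and 3.94 in lung IFNγ+ libraries. The lung IL-4+ libraries lay close together above both other populations, and the 3 populations did not overlap. The differences from lymph node IL-4+ were 2.68 ± 0.32 for lung IL-4+ (limma adjusted p = 0.0041), the largest call at the 4 loci, and 1.67 ± 0.35 for lung IFNγ+ cells (limma adjusted p = 0.0273). Region 15 (chr4:135160984-135161384), just before it, was at 1.37 and 1.1 in lymph node IL-4+, 3.09, 3.09 and 3.15 in lung IL-4+ and 2.23 and 2.21 in lung IFNγ+ libraries, with the same order and no overlap (lung IL-4+ over lymph node IL-4+ 1.87 ± 0.31, limma adjusted p = 0.0128). Region 21 (chr4:135169086-135169522) differed in that both lung populations were alike in level. It was at 2.35 and 0.92 in lymph node IL-4+, 3.55, 4.06 and 4.05 in lung IL-4+ and 4.06 and 4.16 in lung IFNγ+ libraries. Lung IL-4+ exceeded lymph node IL-4+ by 2.25 ± 0.38 (limma adjusted p = 0.0141) and lung IFNγ+ by 2.47 ± 0.42 (adjusted p = 0.0106), and the 2 lung populations overlapped, differing by -0.22 ± 0.38. Region 17 (chr4:135164144-135164544), between them, had a lung IL-4+ excess of 2.31 ± 0.59 that did not pass (limma adjusted p = 0.0693).

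**Figure D4:**
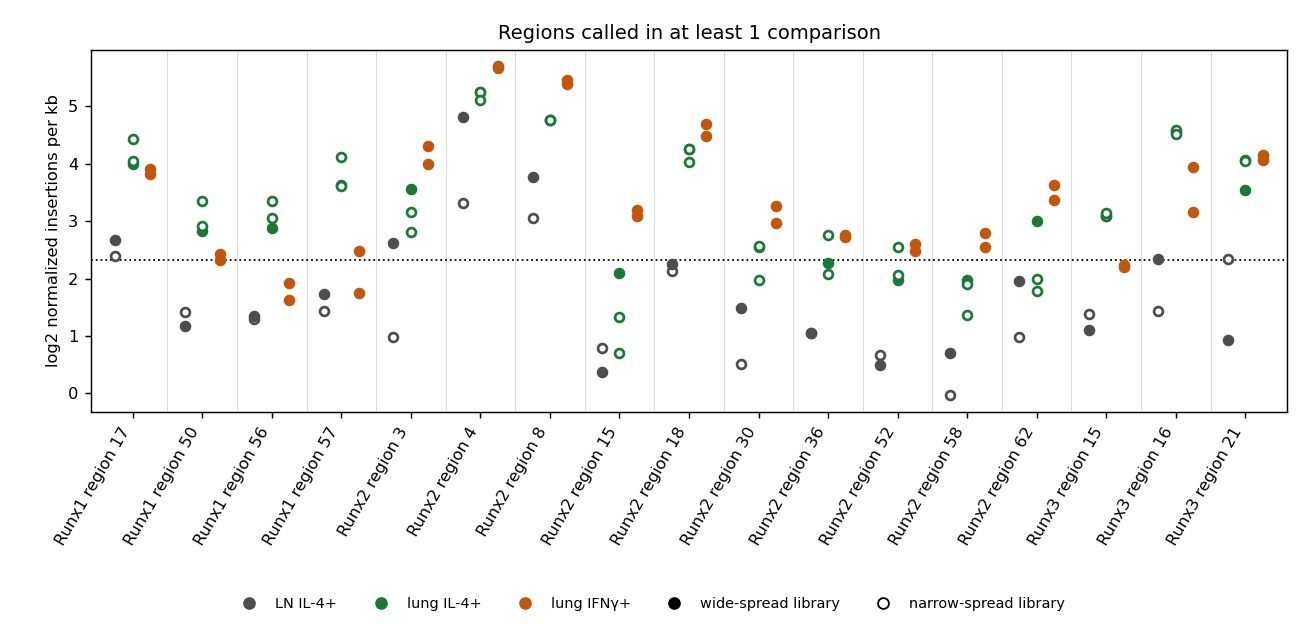
Log2 density (vertical axis) of the 17 called regions in each library, with LN IL-4+ in grey, lung IL-4+ in green and lung IFNγ+ in orange, filled for wide-spread and open for narrow-spread libraries; the dotted line marks a density of 5. At the Runx1 regions lung IL-4+ points are highest, and at most Runx2 regions lung IFNγ+ points are.

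Cbfb had no called region among its 6, where at most 2.17% of all regions were called in any 1 comparison and direction. In none of the 6 Cbfb regions did all lung IL-4+ libraries lie above the lymph node IL-4+ libraries, and in 2 they all lay below. Over all regions 13.6% and 14.3% were so separated. So few regions cannot set these counts apart from the shares over all regions. The highest Cbfb region, 5 (chr8:105224762-105225372), was at 5.32 and 5.30 in lymph node IL-4+, 5.20, 4.87 and 5.26 in lung IL-4+ and 5.34 and 5.33 in lung IFNγ+ libraries. It lies beyond the gene's end, at the start of D230025D16Rik, and so may not belong to Cbfb. The 2 intronic regions had mean log2 values of 0.29 to 1.77 in the 3 populations. Other genes also overlap the loci: the highest Runx2 region, 73 (chr17:44776867-44777777, 5.56 to 6.17 in all libraries), is at the start of Supt3, which encodes a subunit of a histone acetyltransferase complex, and the proximal Runx2 and distal Runx3 promoter regions also hold the starts of Runx2os1 and Gm16225. ATAC-seq has no strand, so such regions cannot be given to 1 gene.

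None of the 11 promoter regions was called by limma in any comparison, and the called regions were among the other 171. At most 2.17% of all regions were called in any 1 comparison and direction. The lack of calls in so few promoter regions was thus near the share over all regions. The median difference between lung IFNγ+ and lymph node IL-4+ cells was 0.47 over the promoter regions and 0.48 over the others, and between lung IL-4+ and lymph node IL-4+ cells it was 0.49 and 0.75. The distal Runx3 promoter (region 4, chr4:135119980-135120681), which holds the close pair of RUNX letters, was the most open, at 5.37 and 5.51 in lymph node IL-4+, 5.81, 6.06 and 5.99 in lung IL-4+ and 6.17 and 6.05 in lung IFNγ+ libraries. Lung libraries were all above the lymph node, by 0.67 ± 0.16 for lung IFNγ+ (limma adjusted p = 0.0483, under 3-fold) and 0.52 ± 0.15 for lung IL-4+ cells (adjusted p = 0.1041). The distal Runx1 promoter (region 75, chr16:92822665-92826366) was at 4.17 and 4.11, then 4.62, 5.0 and 5.16, then 4.72 and 4.60, again with the lung above the lymph node (lung IL-4+ over lymph node IL-4+ 0.79 ± 0.20, limma adjusted p = 0.0675). These are the nearest of 4 listed regions within 1 kb of the distal Runx3 start and of 2 at Runx1. The other at Runx1, region 76, overlapped between all populations (2.96 and 2.24, then 2.62, 3.43 and 3.08, then 2.75 and 2.74). The proximal promoters did not share the order of Runx3 region 4 and Runx1 region 75. At the proximal Runx3 promoter (region 11, chr4:135151560-135156184) the values were 3.77 and 3.00, then 3.39, 4.23 and 4.38, then 2.87 and 3.04, and the 3 narrow-spread libraries were the highest. At the proximal Runx1 promoter (region 26) the libraries lay between 3.99 and 4.76, and at the proximal Runx2 promoter (region 65) between 3.61 and 4.11. The Cbfb promoter (region 1, chr8:105170019-105171902) lay between 4.82 and 5.11, with all populations overlapping and differences of 0.02 to 0.09.

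**Figure D5:**
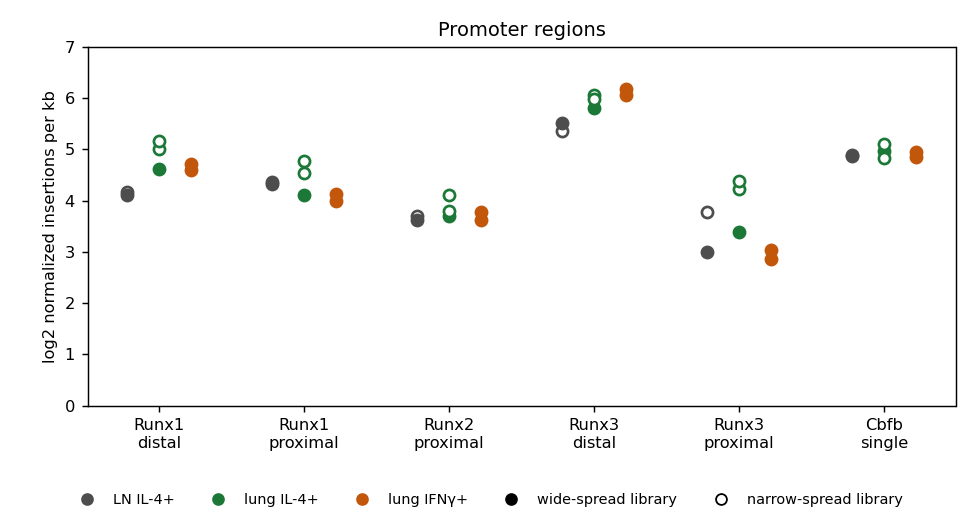
Log2 density (vertical axis) at the 6 annotated promoters with a listed region, by library, with LN IL-4+ in grey, lung IL-4+ in green and lung IFNγ+ in orange, filled for wide-spread and open for narrow-spread libraries. Only the listed region nearest each start is shown. Lung points lie above lymph node points at those of the distal Runx1 and Runx3 promoters, and all points overlap at Cbfb.

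The letters searched occurred at the 4 loci in shares near those over all regions. AACCACA was found in the central 300 bases of 22 of 182 regions (12.1%), against 11% of all regions, with 9 of 76 at Runx1, 9 of 73 at Runx2, 3 of 27 at Runx3 and 1 of 6 at Cbfb. GATA letters were in 16.5% (15.2% of all), bZIP letters in 16.5% (13.0%), T-box letters (AGGTGTGA) in 1.6% (1.7%) and TCF letters (ATCAAAG) in 6.0% (5.5%). Both strands were searched, and a match is a run of letters and not a bound site.

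A list of 29 partners, antagonists and T cell targets of RUNX, with 416 regions within 10 kb, was read in the same fit. Among the partners, the corepressor gene Tle4 had 1 region higher in lung IFNγ+ than in lung IL-4+ and 1 higher than in lymph node IL-4+ cells, Tle3 had 1 higher in lung IFNγ+ than in lymph node IL-4+ cells, and the corepressor gene Cbfa2t3 had 1 higher in lymph node IL-4+ cells. Zbtb7b, which encodes ThPOK, the antagonist of RUNX3 in the choice of the CD4 lineage, had none of its 8 regions called, and Cd4 none of 20. With at most 2.17% of all regions called in any 1 comparison and direction, this lack of calls was near the share over all regions. Among the targets, Ifng and Prf1, encoding IFNγ and perforin, had 2 and 1 regions higher in lung IFNγ+ than in lung IL-4+ cells, and Il4 had 3 higher in lung IL-4+ cells. Between the lung populations 0.72% of the list was called higher in lung IL-4+ and 0.96% in lung IFNγ+ cells, against 0.108% and 0.387% of all regions. All 3 regions behind the first share were of Il4, and 2 of the 4 behind the second were of Ifng. Reporters of these 2 genes defined the sorted cells, so these shares cannot be read as a result about RUNX targets. Over lymph node IL-4+ cells, lung IL-4+ cells were higher in 1 region each of Ifng, Tbx21, Il7r, Foxp3 and Gzmb. These 5 regions were 1.2% of the list, against 1.05% of all regions. None of the 416 was called higher in the lymph node by limma, against 0.695% of all regions. At an unadjusted limma p below 0.05, 60 were higher in lung IL-4+ cells and 21 in the lymph node. Over all 113820 regions 18438 had such a p in either direction. Lung IFNγ+ exceeded lymph node IL-4+ cells in 12 regions of 8 genes, 2.88% of the list against 2.17% of all regions, among them 3 of Tbx21, which encodes T-bet, 2 of Ifng and 2 of Gzmb. The lymph node was higher in 3 regions of Il4 and 1 of Cbfa2t3, 0.96% of the list against 0.862% of all regions. In both comparisons with the lymph node the shares called higher in the lung were near those over all regions. As sums over a locus, lung IFNγ+ exceeded lymph node IL-4+ cells at Gzmb by 2.69 (limma adjusted p = 0.0049), at Ifng by 2.31 (0.0141) and at Prf1 by 1.69 (0.0244), and fell below them at Il4 (-1.37, 0.0266) and Myb (-0.79, 0.0326). Lung IL-4+ exceeded lymph node IL-4+ cells at Gzmb by 2.20 (limma adjusted p = 0.0135) and at Il7r by 1.03 (0.0348). The sort itself used reporters of Il4 and Ifng. Klrb1c, given above, was likewise higher in mean in lung IFNγ+ cells, and its part in these values and in those of Runx2 and Runx3 was not tested.

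Among 9664 or 9665 other protein-coding genes with at least 5 regions, the sums most like those of Runx1 over the 7 libraries were those of Rab8b, Inpp5d (Pearson r 0.993 for both) and Dusp5 (0.987). For Runx2 they were Mpeg1 (0.992), A430078G23Rik and Tgtp2 (0.99 for both), for Runx3 Zdhhc18 (0.992), Tagln and Smad3 (0.991 for both), and for Cbfb Rpl34 (0.971), Hcfc2 (0.91) and Tec (0.907). Between the members, Runx1 and Runx3 had an r of 0.939, and the other pairs had r of -0.445 to 0.350. These are descriptions over 7 libraries that share 3 populations and 2 kinds of spread.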

How the data were processed

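ATAC-seq libraries were made from 50000 sorted cells each. Per the methods and the labels, the authors trimmed adapters, aligned to GRCm38/mm10 with Bowtie2 2.3.2, marked duplicates, removed reads in blacklisted regions, found summits in each replicate with MACS2 2.1.1, merged them into 1 set of regions, counted insertions and normalized them with limma voom (R 3.5.1, limma 3.38.3). The deposited values are log2 insertions per kb, scaled to library size. They also look quantile-normalized, a step not named in the sources used here. File starts count from 0, since the listed length equals end minus start, and 1 was added to each.

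The 4 members and all gene lists were chosen with earlier results of these data known. Named regions are every called region and each gene's highest region and promoter regions. Also named, per gene and comparison, is the region with the largest absolute mean difference among those with non-overlapping libraries. Runx1 region 37 was added as the 1 member region with an adjusted p below 0.05 between the lung populations. Regions were fitted with limma 3.58.1 in R 4.3.3 (1 mean per population, trended empirical Bayes, two-sided, Benjamini-Hochberg correction over 113820 regions) and called at an adjusted p below 0.05 and at least 3-fold. Locus sums were fitted likewise over 17021 protein-coding genes, a test added after seeing the data. Annotation was GENCODE M21, and sequences came from the GRCm38.p6 genome and RefSeq promoter table. The code was tested on simulated data. Deviations of same-numbered replicates from their population means had r of -0.54 to 0.06. These r cannot test a pairing, since 2 libraries of a population deviate as mirror images. Same-numbered lymph node and lung IL-4+ libraries also differed in kind of spread. The numbers were not taken to pair samples, since the mouse behind each library is not stated. Alternatives covered scaling, filters, weights, the replicate block, GC content, spread of the libraries, voom on the rebuilt counts and leaving out each library. Rebuilt counts are lower bounds, and precision is limited by 2 or 3 libraries per population. A marker gene is not reported here.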

Additional observations from a re-analysis of the deposited data

How the results depend on the processing

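Each comparison of single regions had 23 alternatives. The number of members called stayed within 1.5 times the reported one in 14 for lung IL-4+ against lymph node IL-4+ and 11 for lung IFNγ+ against lymph node IL-4+ cells. For lung IL-4+ against lung IFNγ+ it did so in 10, but there the reported count was 0, so that range holds only 0. The cause of the other changes was not tested. Counts over all regions in these alternatives are not given here, so the changes cannot be read as particular to these loci. For lung IL-4+ against lung IFNγ+ (0 called) array weights gave 18, and 1 was called with the low filter, 2 populations at a time, the spread of the libraries as covariate, voom on rebuilt counts, only wide-spread libraries (added after seeing the data), a fold of at least 2, no fold threshold, an adjusted p below 0.1 or 25 kb flanks. Leaving out a library gave 0 to 2. For lung IL-4+ against lymph node IL-4+ (8 called) the count was 0 with no variance trend, 13 with a fold of at least 2 or none and 14 with only wide-spread libraries, and 2 to 16 when a library was left out. For lung IFNγ+ against lymph node IL-4+ (12 called) it was 4 with no variance trend or 2 populations at a time, 20 with an adjusted p below 0.1, 22 with voom on rebuilt counts and 25 with only wide-spread libraries, and 0 to 20 when a library was left out.

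The replicate number is not stated to be a pairing, and a pairing could not be tested. With it as a block, the counts were 0, 0 and 2 regions, and 0, 0 and 3 with a GC correction as well. The block left the Runx2 sum difference between lung IFNγ+ and lymph node IL-4+ cells at 0.74 (adjusted p = 0.199). It gave 0.0096 for Cbfb between lung IL-4+ and lung IFNγ+ cells and 0.028 between lung IL-4+ and lymph node IL-4+ cells.

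Runx1, Runx2 and Runx3 sums kept their direction in all alternatives but these. The Runx1 difference between lung IFNγ+ and lymph node IL-4+ cells was -0.22 as a mean of log2 densities, and that of Runx3 was -0.14 without lymph node IL-4+ replicate 2 (range without a library -0.14 to 0.60). In limma, the spread as covariate gave calls of 0.53 (Runx1), 0.57 (Runx2) and 0.60 (Runx3) between lung IL-4+ and lymph node IL-4+ cells and 0.57 (Runx3) between lung IFNγ+ and lymph node IL-4+ cells. Runx1 was called without lung IL-4+ replicate 1 (0.75, range without a library 0.46 to 0.75). Runx2 between lung IFNγ+ and lymph node IL-4+ cells ranged from 0.66 to 0.82. The shares of all genes called in these alternatives are not given here.

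Cbfb differences changed sign between alternatives. Between lung IL-4+ and lung IFNγ+ cells they were 0.049 for the gene body alone, 0.016 with 25 kb flanks, 0.0037 within the wide class, 0.0079 with the spread as covariate, 0.024 with centred medians in limma but -0.11 for the sums themselves with centred medians, and -0.052 to 0.012 without a library. Between lung IL-4+ and lymph node IL-4+ cells they were 0.17 with the GC correction, 0.080 for the gene body, 0.034 with 25 kb flanks, 0.011 within the narrow class, 0.0051 with the covariate, 0.091 with centred medians in limma but -0.026 for the sums themselves, and -0.027 to 0.028 without a library. Between lung IFNγ+ and lymph node IL-4+ cells they were 0.21 with the GC correction, -0.0069 within the wide class, -0.0028 with the covariate, and -0.014 to 0.050 without a library. With 2 or 3 libraries per population, differences under the spread between libraries could not be resolved.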
